A study of Mus musculus with 3 samples.

Results

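The 10 genes described here present peptides on MHC class I: H2-K1, H2-D1, B2m, H2-Q7, H2-T23, H2-M2, Tap1, Tap2, Tapbp and Nlrc5. They were picked by gene symbol from the 27998 genes of the deposited matrix, each had 1 row, and none of their values entered the choice. Their levels were followed by single-cell RNA sequencing (10x Genomics Chromium, 3′ v2 reagents) in cells that carry Cd11b, a surface protein of microglia and of other myeloid and NK cells. The cells were sorted from the brain, cerebellum excluded, of 5-month-old female C57BL6J mice. The labels give 3 groups of 1 library each. Ctrl was 1 untreated animal. D0 pooled 2 animals fed PLX5622 at 1200 mg/kg of diet for 14 days, and D2 was 1 animal fed in that way and then given control diet for 2 days. PLX5622 blocks Csf1r, a receptor on which microglia depend, and the study followed the loss of microglia and the start of their return. The drug acts on Csf1r throughout the body, and the control animal shared strain, sex and age with the treated ones but not the drug.

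The deposited matrix carries the 3 libraries as barcode suffixes 1, 2 and 3, and no label used here says which suffix is Ctrl, D0 or D2. The suffixes are therefore described side by side and are never read as treatment groups. Each is 1 library, so no difference below has a replicate check and no p-value was computed. Suffix 1 held 1263 barcodes and 6410990 unique molecular identifiers (UMIs), suffix 2 held 599 and 4022293, and suffix 3 held 287 and 2831118, with median depths of 3662, 6188 and 8172 UMIs per barcode. No barcode sequence was shared between suffixes. A level is the UMIs of a gene summed over the cells of a class and divided by all UMIs of those cells, as counts per 1000000 (CPM). The ranges in parentheses are exact 95% intervals (Poisson for levels, conditional binomial for ratios, Clopper-Pearson for shares). They state the error of counting alone, with no part for how animals or cells vary.

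MHC class I molecules show samples of a cell's own proteins to CD8 T cells and to NK cells. Each consists of a heavy chain, here H2-K1 or H2-D1 (the classical chains of the C57BL/6 haplotype) or the non-classical H2-Q7, H2-T23 and H2-M2, with the light chain B2m. Peptides made by the proteasome are pumped into the endoplasmic reticulum by the Tap1-Tap2 transporter, and tapasin (Tapbp) holds the empty heavy chain beside the transporter until a peptide fits. Nlrc5 is a transactivator that binds no DNA itself and works through factors assembled on the X and Y boxes of class I promoters. Resting microglia are known for low class I and for raising it under interferon.

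Of the 10 genes, 8 lie in or near the MHC on mouse chromosome 17, B2m is on chromosome 2 and Nlrc5 is on chromosome 8 (GRCm38). The start sites are described beside the levels, and a link between their sequences and the levels was not tested. RefSeq promoter windows (GRCm38.p6, 250 bases before to 50 after the start) were found for 8 of the 10, the exceptions being Tap2 and Nlrc5. The windows of H2-K1 (chr17.0:34000298-34000597, minus strand), H2-D1 (chr17.0:35262844-35263143, plus strand), H2-Q7 (chr17.0:35438905-35439204, plus strand), B2m (chr2.0:122147437-122147736, plus strand) and H2-M2 (chr17.0:37483505-37483804, minus strand) are printed 5′ to 3′ because they carry the classical chains, the light chain and the 2 genes of the most uneven distribution. Capitals mark matches to 4 stretches of letters: CCAAT (the Y box core), CTGNTGAC (the X2 box), TTTCACT (an interferon response stretch) and GGGNNTTCC (an NF-kB stretch). Both strands were searched, so CCAAT also appears as ATTGG, and no match overlapped another. The letters were chosen after the sequences had been seen.
H2-K1 promoter: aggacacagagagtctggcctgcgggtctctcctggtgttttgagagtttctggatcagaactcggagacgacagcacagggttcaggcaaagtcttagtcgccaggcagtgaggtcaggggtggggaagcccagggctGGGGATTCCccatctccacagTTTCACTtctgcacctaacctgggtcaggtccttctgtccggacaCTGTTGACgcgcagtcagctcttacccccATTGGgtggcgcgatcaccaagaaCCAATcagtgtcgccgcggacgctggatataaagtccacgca
H2-D1 promoter: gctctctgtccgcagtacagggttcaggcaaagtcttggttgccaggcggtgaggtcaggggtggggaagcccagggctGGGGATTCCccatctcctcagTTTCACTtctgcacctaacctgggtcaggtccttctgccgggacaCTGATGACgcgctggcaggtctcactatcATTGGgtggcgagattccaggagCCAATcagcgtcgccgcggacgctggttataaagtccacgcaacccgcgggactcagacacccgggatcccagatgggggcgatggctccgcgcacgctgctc
H2-Q7 promoter: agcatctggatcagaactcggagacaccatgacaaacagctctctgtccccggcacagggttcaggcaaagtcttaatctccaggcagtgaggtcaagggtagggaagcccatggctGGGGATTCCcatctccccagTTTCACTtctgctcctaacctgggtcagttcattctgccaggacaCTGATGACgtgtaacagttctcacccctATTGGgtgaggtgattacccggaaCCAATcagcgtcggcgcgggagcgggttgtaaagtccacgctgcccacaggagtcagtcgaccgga
B2m promoter: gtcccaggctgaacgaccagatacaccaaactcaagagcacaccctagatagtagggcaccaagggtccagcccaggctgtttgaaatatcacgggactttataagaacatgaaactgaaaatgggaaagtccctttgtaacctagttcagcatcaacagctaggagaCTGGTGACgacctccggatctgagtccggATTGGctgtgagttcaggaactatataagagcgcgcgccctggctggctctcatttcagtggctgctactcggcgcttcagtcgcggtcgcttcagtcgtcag
H2-M2 promoter: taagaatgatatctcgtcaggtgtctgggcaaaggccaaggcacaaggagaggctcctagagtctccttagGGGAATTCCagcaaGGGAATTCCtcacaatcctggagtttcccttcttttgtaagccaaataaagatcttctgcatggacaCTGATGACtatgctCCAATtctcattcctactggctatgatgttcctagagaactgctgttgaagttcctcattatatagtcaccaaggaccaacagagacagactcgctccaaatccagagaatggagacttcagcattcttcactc

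All 4 kinds of match stood in the windows of H2-K1, H2-D1 and H2-Q7, in the same order: the NF-kB stretch, the interferon stretch, the X2 box and then a pair of CCAAT matches. Since the letters were picked with these sequences in view, their shares over the 32851 windows of this length in the table are a description. CCAAT stood in 37.4% of all windows and in 8 of the 8 member windows, CTGNTGAC in 4.98% and in 6 of 8, TTTCACT in 4.32% and in 3 of 8, and GGGNNTTCC in 5.82% and in 4 of 8. The B2m and H2-T23 windows held CCAAT and the X2 letters, and the H2-M2 window held both of these and 2 copies of the NF-kB stretch, 179 and 165 bases before the start. In the H2-T23 window the X2 match was on the opposite strand and nearer the start than CCAAT (19 and 52 bases before it). The other windows with the X2 letters had them on the gene's strand and before CCAAT. Tap1 and Tapbp held CCAAT alone. The Tap1 window overlapped that of Psmb9, an immunoproteasome subunit read from the opposite strand, by 275 bases. A match of letters is a description of the sequence and not a bound site. Other forms of these stretches were not searched for, so a window without a match may still hold one.

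The cells were placed in classes by marker genes, with the 10 genes and the other class I pathway genes kept out of the clustering. The labels call the samples microglia, and the markers bore this out in suffix 1, where 1086 of 1261 cells (86.1%) were microglia-like. Suffix 2 had 64 microglia-like cells among 594 (10.8%), and suffix 3 had 2 among 280 (0.714%). The rest of suffix 2 was mostly dendritic-like cells with Cd209a and Mgl2 (190 cells), neutrophil-like (91), NK-like (79), mature dendritic-like with Ccr7 and Ccl22 (55), monocyte-like (45) and non-classical monocyte-like cells (32). Suffix 3 had 53 monocyte-like, 53 Cd209a dendritic-like, 42 non-classical monocyte-like, 33 neutrophil-like and 33 NK-like cells, with 56 cells of an unnamed cluster led by the cell cycle genes Birc5, Ube2c and Top2a. Suffix 1 also had 77 border-associated-macrophage-like, 47 Cd209a dendritic-like, 15 neutrophil-like and 13 NK-like cells. A class needed 10 cells in a suffix to have its level given and 20 to be compared.

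Together the 10 genes had 101888 UMIs. B2m supplied 59148 of them (58.1%) and was seen in 2122 of 2135 cells, H2-D1 supplied 24677 and H2-K1 10227, whereas Tapbp had 2607, H2-T23 1896, Tap2 1083, H2-Q7 1038, Tap1 852, H2-M2 317 and Nlrc5 43. In this 3′ assay a transcript molecule gives 1 tag at its end whatever its length, so these counts were not divided by length. Over classes and suffixes with at least 20 cells, the summed level of the 10 genes ran from 5287 CPM (5223 to 5351) in microglia-like cells of suffix 1 to 18183 CPM (17785 to 18588) in mature dendritic-like cells of suffix 2 and 19409 CPM in non-classical monocyte-like cells of suffix 3. A small unnamed cluster of 12 cells led by Ttr and Enpp2, genes of the choroid plexus, stood far below at 924 CPM (740 to 1140) over all suffixes. The plot of levels by class and suffix shows each gene in turn.

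**Figure D1:**
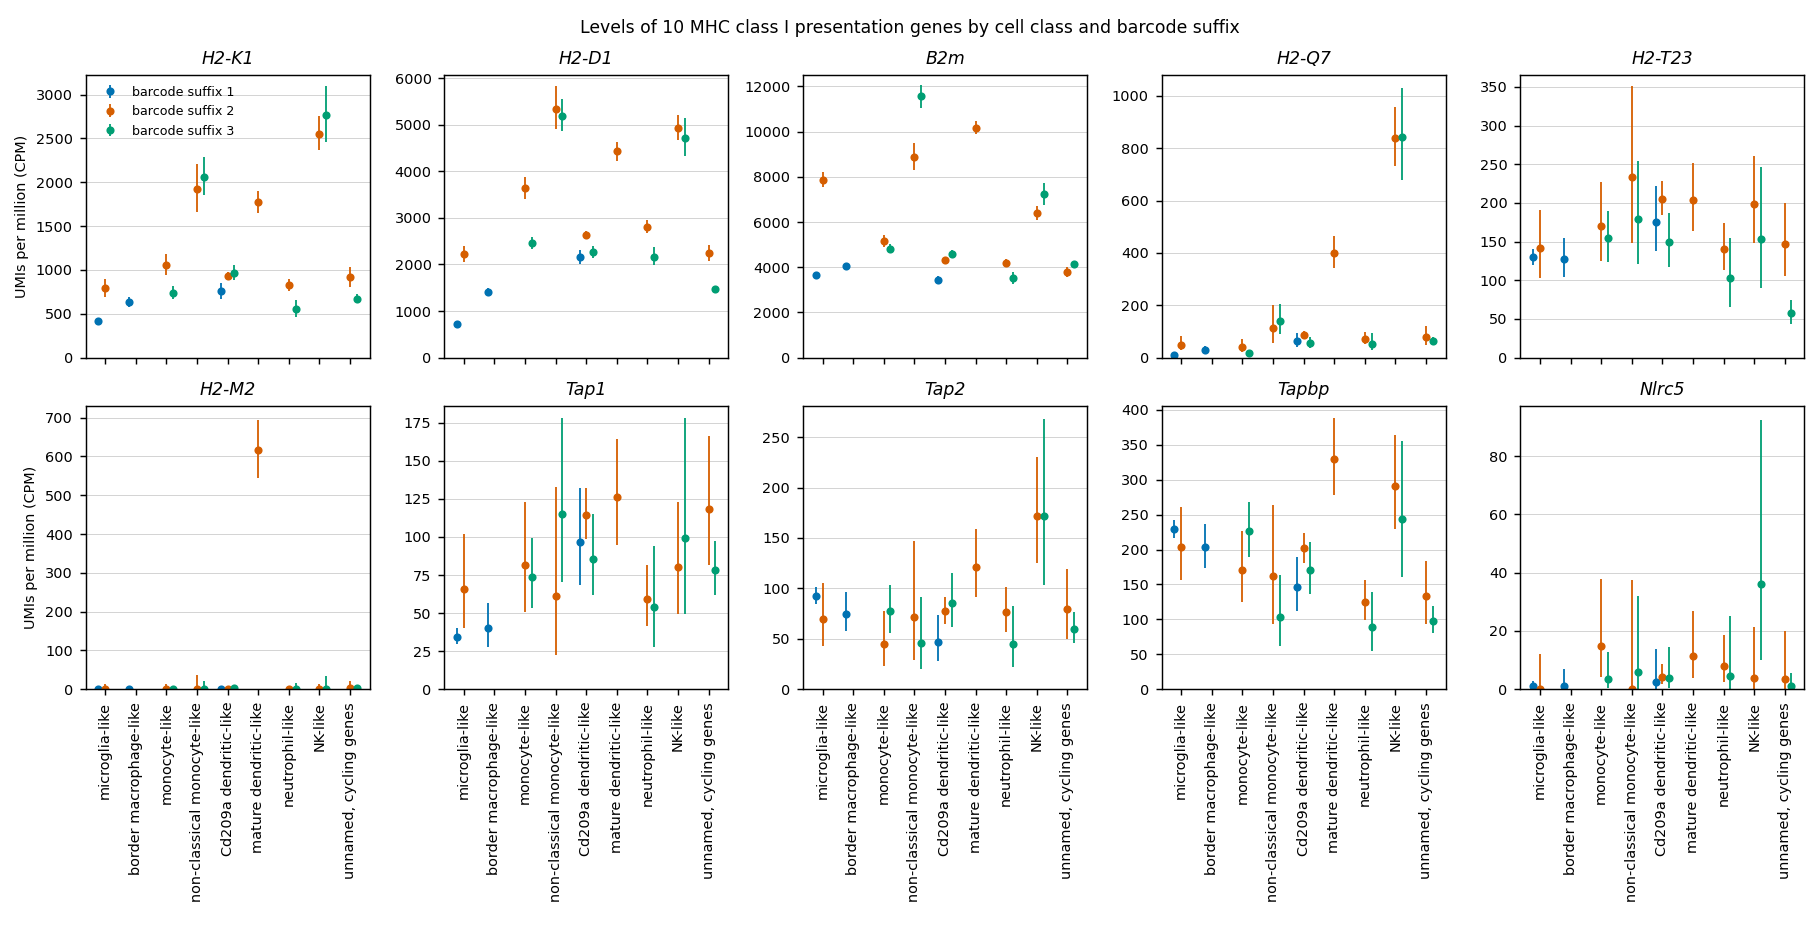
Levels of the 10 genes, 1 panel each, in CPM (vertical axis) for 9 cell classes (horizontal axis) and 3 barcode suffixes (colours), over class and suffix pairs with at least 20 cells. Points are summed counts and bars exact Poisson 95% intervals for counting error. H2-Q7 stands highest in NK-like cells (837 and 841 CPM) and H2-M2 in mature dendritic-like cells of suffix 2 (617 CPM).

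The light chain gene B2m stood in suffix 1 at 3429 CPM (3251 to 3614) in Cd209a dendritic-like, 3662 CPM (3608 to 3715) in microglia-like and 4050 CPM (3913 to 4191) in border-associated-macrophage-like cells, with intervals of the first 2 that overlapped. In suffix 2 it was highest in mature dendritic-like cells at 10176 CPM (9879 to 10480), then in non-classical monocyte-like cells at 8879 CPM and in microglia-like cells at 7876 CPM (7563 to 8198). NK-like (6402 CPM) and monocyte-like cells (5150 CPM) followed, and Cd209a dendritic-like, neutrophil-like and the cycling cluster lay between 3792 and 4322 CPM with intervals that overlapped between neighbours. Suffix 3 had its peak in non-classical monocyte-like cells, 11568 CPM (11067 to 12086), and its lowest B2m in neutrophil-like cells, 3514 CPM. The 3 classes of suffix 1 lay within a range of 1.18-fold.

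The classical heavy chain H2-D1 was at 712 CPM (689 to 736) in microglia-like cells of suffix 1, below border-associated-macrophage-like cells at 1408 CPM (1327 to 1492) and Cd209a dendritic-like cells at 2158 CPM (2017 to 2306). In suffix 2 the order from the top was non-classical monocyte-like at 5344 CPM, NK-like at 4927 CPM, mature dendritic-like at 4425 CPM and monocyte-like at 3634 CPM. Microglia-like cells closed that order at 2222 CPM (2057 to 2396), level with the cycling cluster at 2237 CPM. The first 2 of the order could not be separated within counting error, and the same 2 classes led in suffix 3 at 5193 and 4719 CPM.

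H2-K1, the other classical chain, was at 417 CPM (399 to 435) in microglia-like, 633 CPM (580 to 690) in border-associated-macrophage-like and 756 CPM (673 to 845) in Cd209a dendritic-like cells of suffix 1. NK-like cells had the highest level in both other suffixes, 2553 CPM (2363 to 2754) in suffix 2 and 2767 CPM (2465 to 3095) in suffix 3, and non-classical monocyte-like cells were next at 1920 and 2060 CPM. Mature dendritic-like cells reached 1770 CPM in suffix 2. Between 1057 and 793 CPM the monocyte-like, Cd209a dendritic-like, cycling, neutrophil-like and microglia-like cells of suffix 2 formed a row in which no class could be told from the next. H2-K1 and H2-D1 are close relatives, and how the counting treated reads that fit both is not given in the sources used here.

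H2-Q7 encodes Qa-2, a non-classical heavy chain that can be anchored to the membrane by a lipid. It had the widest range of the heavy chains other than H2-M2, from 8.93 CPM (6.49 to 12.0; 44 UMIs) in microglia-like cells of suffix 1 to 837 CPM (730 to 956) and 841 CPM (679 to 1030) in NK-like cells of suffixes 2 and 3. The 13 NK-like cells of suffix 1 were at a like level, 797 CPM (564 to 1095). Mature dendritic-like cells of suffix 2 held 401 CPM (344 to 465), and every other class and suffix lay at or below 139 CPM. In cells thinned to 2000 UMIs each, which evens out depth, 50 of 67 NK-like cells of suffix 2 had an H2-Q7 UMI (74.6%, 62.5 to 84.5), against 12 of 1018 microglia-like cells of suffix 1 (1.18%, 0.611 to 2.05). H2-Q6 is nearly identical to H2-Q7, so the split of reads between these genes is uncertain.

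H2-T23 encodes Qa-1, the chain that NK cells read through the Cd94 and NKG2 receptors, and it varied little between classes. Its levels in suffix 1 were 130 CPM in microglia-like, 128 CPM in border-associated-macrophage-like and 176 CPM in Cd209a dendritic-like cells. In suffix 2 the 8 classes lay between 141 and 234 CPM, and every class overlapped the next in counting error. In suffix 3, 5 classes lay between 103 and 179 CPM, and the cycling cluster at 57.8 CPM (44.0 to 74.6) overlapped only its neighbour.

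H2-M2, a non-classical chain of the M region, was almost a single-class transcript. Mature dendritic-like cells held 308 of its 317 UMIs (97.2%, 94.7 to 98.7) while making up 2.81% of the cells. In these cells of suffix 2 its level was 617 CPM (269 UMIs), close to that of H2-Q7. Among the 60 mature dendritic-like cells, 34 had an H2-M2 UMI (56.7%, 43.2 to 69.4), and the 12 cells with 10 or more UMIs supplied 69.5% of that class's count. Positive and negative cells had median depths of 7396 and 7062 UMIs. The other 9 UMIs lay in 3 Cd209a dendritic-like cells, 2 cycling cells and 1 cell each of 3 further classes. NK-like cells, which should lack the gene, had a UMI in 0 of 79 cells of suffix 2 at a median depth of 3092 UMIs. The floor of 3 counts used for a count of 0 stood there at 11.5 CPM, and the exact 95% upper limit at 14.1 CPM. H2-M2 was not a marker and not in the clustering, although it was among the 3 leading genes of that cluster once the cluster had formed.

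Tap1 and Tap2 form 1 transporter but were ordered differently by class. Tap1 was at 34.5 CPM (29.5 to 40.1) in microglia-like cells of suffix 1, 40.5 CPM in border-associated-macrophage-like and 96.6 CPM (68.7 to 132) in Cd209a dendritic-like cells. Tap2 ran the other way in that suffix, at 92.4 CPM (84.1 to 101), 74.9 CPM and 47.1 CPM (28.3 to 73.5). Dendritic-like over microglia-like cells, the ratio in suffix 1 was 2.80 (1.92 to 3.99) for Tap1 and 0.510 (0.304 to 0.805) for Tap2. In suffix 2 Tap2 was highest in NK-like cells at 172 CPM (126 to 230), and in suffix 3 again at 172 CPM, where Tap1 had only 80.3 and 99.5 CPM. Tapbp led in mature dendritic-like cells of suffix 2 (330 CPM, 279 to 389) and in NK-like cells of suffixes 2 and 3 (291 and 244 CPM), and was lowest there in neutrophil-like cells (125 and 89.7 CPM). Most neighbours in the order of these 3 genes overlapped, since many classes rest on fewer than 50 UMIs.

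Nlrc5 was at the limit of detection, with 43 UMIs in 41 cells over all classes. No class and suffix held more than 7 of them, and none of the pairs compared here reached 20 UMIs. In microglia-like cells the gene had 6 UMIs in suffix 1 (1.22 CPM, 0.447 to 2.65) and 0 in suffix 2, where a count of 0 allows up to 9.87 CPM. No ordering of the classes by Nlrc5 can be given at this depth.

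In microglia-like cells B2m, H2-D1, H2-K1, H2-Q7 and Tap1 were higher in suffix 2 than in suffix 1 beyond counting error, and H2-T23, Tap2 and Tapbp were not. H2-D1 stood at 2222 against 712 CPM, a ratio of 3.12 (2.87 to 3.39), B2m at 7876 against 3662 CPM (2.15, 2.06 to 2.25), and H2-K1 at 793 against 417 CPM (1.90, 1.66 to 2.18). H2-Q7 was at 49.4 against 8.93 CPM (5.53, 2.86 to 10.1), on 15 and 44 UMIs, and Tap1 at 65.8 against 34.5 CPM (1.91, 1.14 to 3.04). The non-classical heavy chain H2-T23 had a ratio of 1.09 (0.782 to 1.49), and the peptide-loading genes Tapbp and Tap2 had ratios of 0.891 (0.679 to 1.15) and 0.748 (0.459 to 1.16). Of the 8 members with at least 20 UMIs, 3 (H2-Q7, H2-D1 and B2m) were at least 2-fold higher and 0 at least 2-fold lower. B2m, H2-K1 and Tap1 lay close to the 2-fold mark, and the count was 2 at a finer clustering or with at least 1000 genes per cell, 4 with doublets kept and 5 without mitochondrial and ribosomal protein genes in the CPM. Among all 9219 genes with that many UMIs, 4.04% were at least 2-fold higher and 24.4% at least 2-fold lower. The median log2 ratio was 0.93 over the 8 members and -0.39 over all genes. These cells held 4925693 UMIs in suffix 1 and 303838 in suffix 2, so genes near the minimum could have few or no UMIs in suffix 2. The values over all genes include such genes, whereas H2-K1, H2-D1 and B2m had 241, 675 and 2393 UMIs there. The part of low counts in the values over all genes was not tested.

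**Figure D2:**
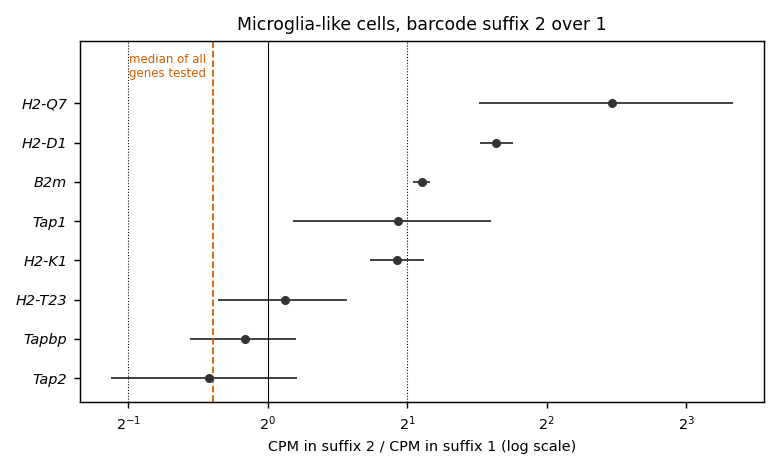
Ratio of CPM in microglia-like cells of suffix 2 (64 cells) to suffix 1 (1086 cells) for 8 members, on a log2 axis. Points are ratios, bars 95% counting intervals, dotted lines the 2-fold marks and the dashed line the median of all genes tested. H2-Q7, H2-D1 and B2m lie to the right of the 2-fold mark, Tap1 and H2-K1 just short of it, and H2-T23, Tapbp and Tap2 straddle equality.

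The summed level went from 5287 to 11421 CPM, a ratio of 2.16 (2.09 to 2.24), and to the same degree without B2m (2.18, 2.05 to 2.33). Cell by cell, at 2000 UMIs each, the median sum was 10 UMIs in 1018 cells of suffix 1 and 21 UMIs in 58 cells of suffix 2. Of those 58 cells, 39 (67.2%, 53.7 to 79.0) exceeded the 95th percentile of suffix 1, which was 18 UMIs, and 54 exceeded its median. The cells of both suffixes overlapped, with sums of up to 33 UMIs in suffix 1 and down to 6 UMIs in suffix 2. H2-D1 had a UMI in 58 of 58 thinned cells of suffix 2 and in 709 of 1018 of suffix 1 (69.7%), with medians of 4 and 1 UMIs.

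**Figure D3:**
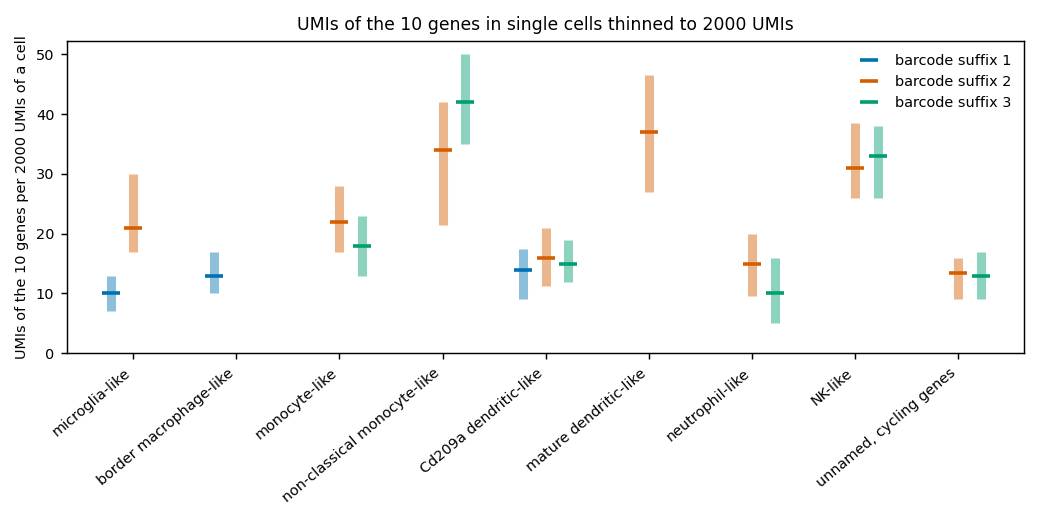
UMIs of the 10 genes together per cell (vertical axis), each cell thinned to 2000 UMIs, by cell class and barcode suffix. Lines are medians over cells and bars reach from the lower to the upper quartile. In microglia-like cells the median is 10 in suffix 1 and 21 in suffix 2, with quartiles of 7 to 13 and 17 to 30.

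Different clusters made up the microglia-like class in the 2 suffixes. Suffix 1 was mostly of cluster 1 (492 cells, led by Hes1 and Slc2a5) and cluster 0 (412, led by P2ry13 and P2ry12), and suffix 2 of cluster 0 (35) and cluster 2 (23, led by Il1a, Tnf, Ccl3 and Egr1). Within cluster 0 the ratio of the sums was 2.13 (2.01 to 2.26), and within cluster 2 it was 2.13 (2.03 to 2.24), a split chosen after the data had been seen. In cluster 0, 4 of 7 members were at least 2-fold higher (3.58% of all genes) and 0 lower (24.3%), and in cluster 2, 3 of 8 were higher (4.2%) and 0 lower (25%). Within suffix 1, cluster 2 differed little from cluster 0 in the sum (ratio 1.02, 0.986 to 1.05) but had more H2-K1 (1.64, 1.45 to 1.86), the ratio for H2-D1 being 1.26. H2-Q7 was the 1 of 8 members at least 2-fold higher there (2.30, 1.05 to 5.40), beside 3.44% of all genes. Of the 15 H2-Q7 UMIs in suffix 2, 12 lay in cluster 2 and 3 in cluster 0. Within cluster 2 its ratio of suffix 2 over 1 was 4.04 (1.83 to 8.46). The part of the cluster make-up in the H2-Q7 ratio was not tested.

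Markers of other cells also differed between these suffixes in microglia-like cells. The 12 neutrophil markers summed to 211 CPM in suffix 1 and 876 CPM in suffix 2, beside 516 CPM in NK-like cells of suffix 2 and 131325 CPM in neutrophil-like cells, with Mmp8 and Ly6g at 0 in the microglia-like cells of both suffixes. The 10 NK markers stood at 2.84 and 29.6 CPM with Ncr1, Klrb1c, Prf1, Xcl1 and Eomes at 0 in suffix 2, and the 10 monocyte markers at 20.5 and 56.0 CPM with Fn1, Hp and F10 at 0. The markers of Cd209a dendritic cells were at 757 and 780 CPM. The 10 microglia markers themselves were lower in suffix 2, 20142 against 36236 CPM. The part of these in the class I difference was not tested. In suffix 3 the 2 microglia-like cells had 200 B2m, 31 H2-D1 and 4 H2-K1 among 20922 UMIs, too few cells for a level.

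Other classes were compared between suffixes where both had 20 cells, which was suffix 3 over 2 for all of them and suffix 2 over 1 for Cd209a dendritic-like cells alone. NK-like cells had summed levels of 14878 CPM (13803 to 16015) in suffix 1, 15465 CPM (14992 to 15949) in suffix 2 and 16256 CPM (15513 to 17025) in suffix 3, with a ratio of suffix 3 over 2 of 1.05 (0.994 to 1.11). In that pair 0 of 8 members passed 2-fold in either direction, against 3.85% of all genes higher and 5.43% lower. Cd209a dendritic-like cells were at 6875, 8587 and 8360 CPM. Suffix 2 over 1 their ratio was 1.25 (1.20 to 1.30), and suffix 3 over 2 it was 0.974 (0.940 to 1.01). In those 2 comparisons 0 of 8 members passed 2-fold, beside 5.91% and 5.8% of all genes higher and 7.36% and 6.26% lower.

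Monocyte-like cells were lower in suffix 3 than in suffix 2, 8580 against 10363 CPM (0.828, 0.790 to 0.868). The size of this class in suffix 2 changed with the processing, from 34 cells with doublets kept to 94 with at least 1000 genes per cell. The ratio of suffix 3 over 2 was computed with the reported classes alone, with 45 monocyte-like cells in suffix 2. Of 8 members, 1 was at least 2-fold lower, H2-Q7 at 0.388 (0.142 to 1.03; 9 and 11 UMIs), beside 4.21% of all genes, and 0 were at least 2-fold higher, beside 7.59%. H2-D1 (0.677, 0.624 to 0.736) and H2-K1 (0.701, 0.602 to 0.817) accounted for most of the difference, while B2m was at 0.937 (0.879 to 1.00). Neutrophil-like cells had a like ratio of 0.794 (0.749 to 0.842), with 0 of 8 members past 2-fold (4.01% of all genes higher, 11% lower). Non-classical monocyte-like cells went the other way through B2m (1.30, 1.20 to 1.41), with a ratio of 1.16 for the sum and 0.992 without B2m. Among 7 members tested there, 0 passed 2-fold, beside 7.15% of all genes higher and 8.18% lower. In the cycling cluster H2-T23 was the 1 of 8 members at least 2-fold lower in suffix 3 (0.393, 0.259 to 0.600), beside 7.34% of all genes, and 0 members were at least 2-fold higher, beside 18.9%.

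Set against microglia-like cells of the same suffix, NK-like cells of suffix 2 had 4 of 8 members at least 2-fold higher (25.6% of all genes tested) and 0 at least 2-fold lower (19.7%). These were H2-Q7 (17.0, 10.1 to 30.8), H2-K1 (3.22, 2.77 to 3.75), Tap2 (2.49, 1.45 to 4.40) and H2-D1 (2.22, 2.02 to 2.44), whereas B2m was lower at 0.813 (0.763 to 0.866). H2-Q7, with 219 UMIs in NK-like and 15 in microglia-like cells, met the minimum of 20 UMIs only through the NK-like cells. The 4 counted members include it. The summed level was 1.35 times as high (1.29 to 1.42) with B2m and 2.56 times as high (2.38 to 2.75) without it. NK-like cells also bear receptors that read class I. Of 13 genes listed for such receptors, 9 had at least 20 UMIs, with 52 to 408 UMIs in NK-like and 0 to 2 in microglia-like cells. They met that minimum only through the NK-like cells, so their direction was fixed by it.

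Mature dendritic-like cells of suffix 2 had H2-Q7 (8.13, 4.80 to 14.8) and H2-K1 (2.23, 1.93 to 2.59) at least 2-fold above microglia-like cells, 2 of 8 members (19.6% of all genes), and 0 at least 2-fold lower (25.5%). H2-M2, at 617 CPM against 0 of 64 cells, met the minimum of 20 UMIs only through the mature dendritic-like cells and stands outside this count. H2-Q7, with 175 UMIs there and 15 in microglia-like cells, also met that minimum only through the mature dendritic-like cells. The 2 counted members include it. H2-D1 was just below 2-fold at 1.99 (1.82 to 2.18), Tapbp at 1.62 (1.19 to 2.22) and B2m at 1.29 (1.23 to 1.36). Compared with the Cd209a dendritic-like cells of that suffix, the sum was 2.12 times as high (2.06 to 2.18). In that comparison B2m (2.35, 2.27 to 2.44) and H2-Q7 (4.62, 3.68 to 5.80) were at least 2-fold higher, 2 of 8 members (10.6% of all genes), and 0 were lower (21.9%). H2-M2, again outside the count, had a ratio of 511 on 269 against 2 UMIs (140 to 4243). H2-T23 was equal in both at 0.995 (0.779 to 1.26), and Tap1 at 1.10 (0.800 to 1.49) did not differ beyond counting error.

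Non-classical monocyte-like cells of suffix 2 exceeded microglia-like cells at least 2-fold in 3 of 8 members (18.1% of all genes) and had 0 at least 2-fold lower (20.1%). H2-K1 was at 2.42 (1.99 to 2.94) and H2-D1 at 2.41 (2.14 to 2.70), and H2-Q7 at 2.26 (0.940 to 5.27) rested on 11 and 15 UMIs. Their summed level was 1.47 times as high (1.39 to 1.56).

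In the monocyte-like, neutrophil-like and Cd209a dendritic-like cells of suffix 2, 0 of 8 members passed 2-fold in either direction against microglia-like cells. The share of all genes at least 2-fold higher was 18.3%, 16% and 18.7%, and at least 2-fold lower 18.5%, 22% and 18.5%. Their sums stood at 0.907 (0.863 to 0.954), 0.727 (0.696 to 0.759) and 0.752 (0.725 to 0.781) of the microglia-like level. Without B2m all 3 were above it, at 1.47 (1.36 to 1.59), 1.16 (1.08 to 1.25) and 1.20 (1.13 to 1.28), so the direction of the sum came from B2m. For monocyte-like cells the direction also turned with the clustering, to 1.09 (1.04 to 1.14) at a finer resolution, and with doublets kept the ratio of 1.03 (0.975 to 1.09) could not be told from 1. Neutrophil-like cells of suffix 2 also carried 24047 CPM of the Cd209a dendritic markers, with all 10 detected, beside 734 CPM in NK-like cells, and the part of these in the neutrophil-like values was not tested. The cycling cluster had 1 of 8 members at least 2-fold lower than microglia-like cells, B2m at 0.482 (0.448 to 0.518; 20.4% of all genes), and 0 at least 2-fold higher (22.6%).

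In suffix 1 border-associated-macrophage-like cells had 1 of 8 members at least 2-fold higher than microglia-like cells, H2-Q7 at 3.30 (1.92 to 5.54; 6.08% of all genes), and 0 at least 2-fold lower (4.97%), while H2-D1 stood at 1.98 (1.85 to 2.11). Their B2m ratio was 1.11 and that of the sum 1.24 (1.21 to 1.28). Cd209a dendritic-like cells of suffix 1 had 3 of 8 members at least 2-fold higher (8.52% of all genes) and 0 at least 2-fold lower (35.3%). The higher ones were H2-Q7 (7.21, 4.26 to 12.0), H2-D1 (3.03, 2.81 to 3.26) and Tap1. In suffix 2 the same 2 classes differed by 1.19 (1.10 to 1.29) for H2-D1 and by 1.76 (1.03 to 3.23; 144 and 15 UMIs) for H2-Q7, on the microglia-like level described above.

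The amount of light chain per classical heavy chain set microglia-like cells apart. They had 3.24 UMIs of B2m (3.15 to 3.34) for each UMI of H2-K1 and H2-D1 in suffix 1 and 2.61 (2.42 to 2.82) in suffix 2. Border-associated-macrophage-like cells had 1.98, mature dendritic-like cells 1.64, and NK-like cells the least, 0.856 (0.801 to 0.914) in suffix 2 and 0.965 (0.875 to 1.07) in suffix 3. The other classes lay between 1.10 and 1.94. The make-up of the heavy chains shifted too: microglia-like cells had 1.71 UMIs of H2-D1 per UMI of H2-K1 (1.62 to 1.81) in suffix 1 and 2.80 (2.41 to 3.26) in suffix 2. NK-like cells were at 1.93 and 1.71 in suffixes 2 and 3, and monocyte-like (3.44 and 3.32) and neutrophil-like cells (3.40 and 3.90) were weighted most toward H2-D1.

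**Figure D4:**
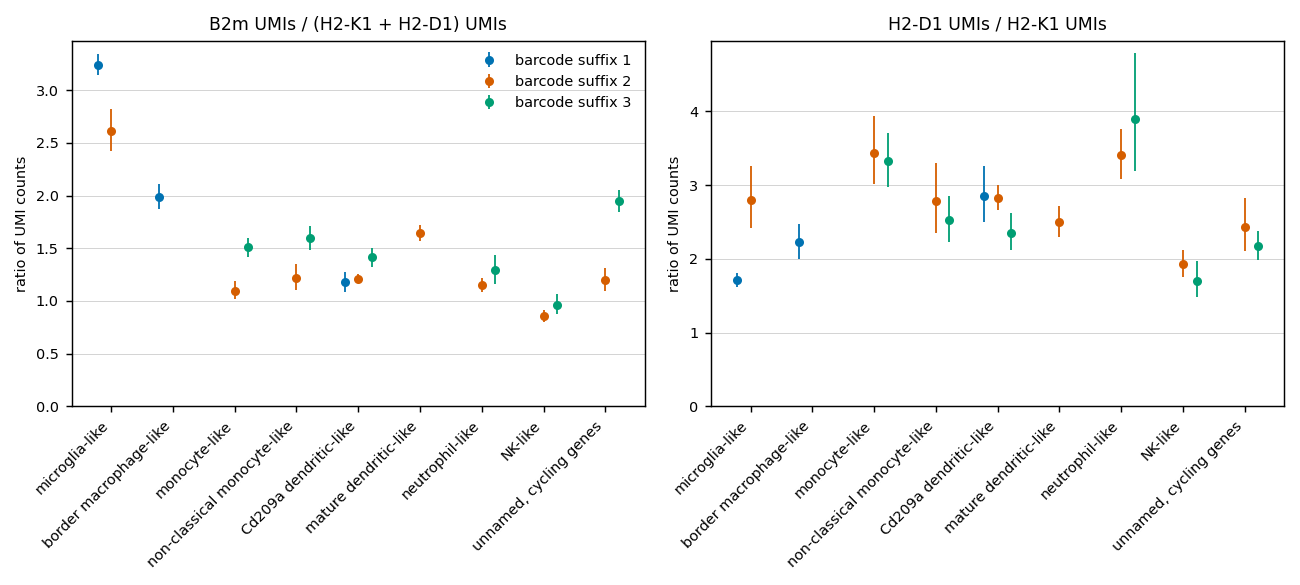
Ratios of UMI counts by cell class (horizontal axis) and barcode suffix (colours): B2m over the sum of H2-K1 and H2-D1 (left) and H2-D1 over H2-K1 (right). Bars are exact 95% counting intervals. On the left, microglia-like cells stand highest (3.24 and 2.61) and NK-like cells lowest (0.856 and 0.965).

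Other genes of the pathway were counted from lists chosen with earlier results of these data known. In microglia-like cells, suffix 2 over 1, 7 of the 9 measured of 16 interferon-stimulated genes were at least 2-fold higher and 0 lower, where 4.04% of all genes were higher and 24.4% lower. Ifi27l2a stood highest at 5.81 (53 and 148 UMIs), and the chemokine Cxcl10 was at 3.84 (2.83 to 5.13). Ifit3 was at 5.40 (1.76 to 14.2, on 6 and 18 UMIs), and Bst2 and Xaf1 were the 2 below 2-fold. With 18 UMIs in suffix 1, Ifit3 met the minimum count for a ratio only through its UMIs in suffix 2. Its direction was fixed by that minimum, and the 7 higher genes include it. The list's sum was 341 CPM in suffix 1 and 964 CPM in suffix 2. By contrast 0 of 5 genes of the immunoproteasome and its PA28 activator passed 2-fold in either direction, Psmb8 standing at 1.24 (0.992 to 1.52) and Psmb10 at 0.557 (0.342 to 0.859). The 3 constitutive counterparts of the immunoproteasome subunits did not pass 2-fold either, from Psmb5 at 0.642 (0.413 to 0.957) to Psmb6 at 1.09 (0.827 to 1.41). Of 8 peptide trimming and loading genes 0 passed 2-fold. The trimming peptidases Erap1 (0.523, 0.0620 to 1.97) and Tpp2 (0.526, 0.191 to 1.17) had the lowest ratios, and Calr, a chaperone of the loading complex, was at 0.896 (0.762 to 1.05). A list drawn up for receptors that read class I molecules had 3 measured genes, and Lilrb4a is not taken here as a reader of class I. Lilrb4a (5.07, 2.22 to 10.6) and Pirb (3.17, 1.80 to 5.30), inhibitory receptors of myeloid cells, were at least 2-fold higher, and Klrd1 had 1 UMI in suffix 2. All 10 Lilrb4a UMIs of suffix 2 lay in cells of cluster 2. Among 10 measured heavy chain and class I-like genes H2-Q6 was higher (5.57, 2.53 to 11.4) and Cd1d1 lower on 1 UMI (0.195, 0.00489 to 1.12). Among 10 transcription factors of class I promoters 0 were at least 2-fold higher and 3 lower, and among 7 interferon receptor and kinase genes 0 were higher and 2 lower, 4 of these 5 (all but Jak1) on 2 UMIs or fewer in suffix 2. These shares lie near the 24.4% of all genes that were lower and are no result about the lists.

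In mature dendritic-like cells all 5 immunoproteasome and PA28 genes were at least 2-fold above microglia-like cells of suffix 2, led by Psme2 (9.16, 6.94 to 12.3) and Psmb9 (4.30, 2.88 to 6.67). Of 4 measured trimming and loading genes, 3 were at least 2-fold lower, with Canx at 0.261 and Pdia3 at 0.264, and Tapbpl was at least 2-fold higher (2.66, 1.35 to 5.73). With 42 UMIs in mature dendritic-like and 11 in microglia-like cells, Tapbpl met the minimum of 20 UMIs only through the former. In this comparison 19.6% of all genes were higher and 25.5% lower. Other classes of suffix 2 shared part of this over the same microglia-like cells. Psmb9 was at 3.24 in NK-like, 2.66 in Cd209a dendritic-like, 2.13 in monocyte-like and 2.21 in non-classical monocyte-like cells. It was at 3.59 in the cycling cluster and 1.55 in neutrophil-like cells. Psme2 ran from 1.13 in neutrophil-like to 2.04 in NK-like cells, and Pdia3 from 0.352 in monocyte-like to 0.700 in NK-like cells. In mature dendritic-like over Cd209a dendritic-like cells of the suffix, 8 of 16 interferon-stimulated genes were at least 2-fold lower (21.9% of all genes) and 0 higher (10.6%). Ifit1 was at 0.0268 and Ifit2 at 0.0760, and the class I sum was 2.12 times as high. A link between interferon-stimulated transcripts and class I levels was not tested, here or for the classes that follow. Monocyte-like cells held the most interferon-stimulated transcripts, 10015 CPM in suffix 2 and 9787 CPM in suffix 3. NK-like cells held 654 and 543 CPM, fewer than microglia-like cells of suffix 2, beside the highest H2-K1 and H2-Q7.

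Over the 17 class and suffix pairs with at least 20 cells, the genes most alike in pattern to each member were ranked by Pearson's r of log2(CPM + 1) among 5978 genes, with the 10 members left out of this ranking. The points share libraries and differ in depth, and r is a description. Among genes outside the members, H2-K1 was nearest to H2-T22, another class I heavy chain (r = 0.88), then to Nabp1 (0.85) and 2410015M20Rik (0.85), and H2-D1 to Nabp1 (0.87), Sepw1 (0.86) and Uqcrh (0.85). Tap1 was nearest to Psmb8 (0.89), an immunoproteasome gene beside it in the MHC, then to Rpl26 (0.89) and Rps24 (0.88). H2-M2 was nearest to Cacnb3 (0.92), Mif4gd (0.90) and Nudt17 (0.90), the first and last of which are markers used to name the mature dendritic-like class. H2-Q7 was nearest to AW112010 (0.90), Fyn (0.87) and Eif1 (0.86), B2m to Atp6v1f (0.86), Stat3 (0.85) and Edf1 (0.80), and H2-T23 to Pfdn5 (0.82), Rps27 (0.81) and Gltscr2 (0.75). Tap2 was nearest to Trip11 (0.87), Apobec3 (0.85) and Serpinb9 (0.85), and Tapbp to Sbds (0.79), Kansl3 (0.79) and Tapbpl, a relative of tapasin (0.78). Between members, the pair H2-K1 and H2-D1 was closest (0.905), followed by H2-K1 with H2-Q7 (0.88), H2-K1 with B2m (0.78), H2-D1 with H2-Q7 (0.76) and Tap2 with Tapbp (0.75), while Tap1 and Tap2 stood at 0.10.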

How the data were processed

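The authors deposited 1 matrix of UMI counts per gene and cell for the whole series. Per the submitters' processing notes, Cell Ranger 2.0.1 and genome build mm10 were used. How barcodes were accepted as cells is not given in the sources used here. Gene positions are from GENCODE M21 on GRCm38, the assembly of mm10, and promoter windows are from RefSeq.

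A cell was kept with 500 or more detected genes and no more than 10% mitochondrial counts. Scrublet in scanpy 1.11.5 (expected rate 5%) marked 9 of 2144 cells (0.42%) as doublets, too few to count as working, and some doublets may sit among the 2135 cells analysed. Counts scaled to 10000 per cell and log-transformed gave 2000 variable genes, 30 principal components, 15 neighbours and, with Leiden at resolution 0.5 (igraph 0.11.9), 13 clusters. The 10 members and the other class I pathway genes were left out of the variable genes. Clusters were named from marker lists by a rule settled once the clusters were known. Passing markers had a UMI in a fraction of at least 0.3 of the cells and a CPM of at least 2 times the median over clusters, and 3 were needed. A cluster stayed unnamed where no marker led it and not all markers passed, or where it had under 20 cells.

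Counts were summed per class and suffix and turned into CPM. Ratios needed 20 UMIs over both groups, and a gene was counted as different at 2-fold. The intervals and this count were tested on simulated data. A floor of 3 counts was used where a count was 0. All 10 members are named, and of each pathway list mainly genes furthest in either direction, a few more having been picked after their values were seen. The members, lists and tests were chosen with earlier results of these data known. Alternatives to the clustering, filter and scaling are in the closing section. The analysis used scipy 1.17.1.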

Additional observations from a re-analysis of the deposited data

How the results depend on the processing

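No paired analysis was possible because each group is 1 library and no label ties a barcode suffix to a group. With 1 library each, no replicate could be left out. The ratio of summed levels in microglia-like cells, suffix 2 over 1 (2.16), stayed above 1 under all 10 alternatives run, among them 2 added after the data had been seen (cluster 0 or cluster 2 only). It moved beyond its counting interval in 3, to 1.95 at Leiden resolution 1.0, 1.97 with at least 1000 genes per cell and 2.33 without mitochondrial and ribosomal protein genes in the CPM. In the 5 of these that rebuilt the classes or changed the total, and as reported, H2-D1 (2.83 to 3.36) and H2-Q7 (5.24 to 5.96) stayed above 2-fold, whereas B2m (1.93 to 2.32), H2-K1 (1.75 to 2.05) and Tap1 (1.73 to 2.06) lay on both sides of it, so that 2 to 5 of 8 members passed. NK-like over microglia-like cells (1.35) gave 1.50 at resolution 1.0, 1.43 with doublets kept, 1.46 with at least 1000 genes, 1.48 without mitochondrial and ribosomal genes and 2.56 without B2m. Monocyte-like over microglia-like cells (0.907) turned to 1.09 at resolution 1.0, 1.03 (0.975 to 1.09, which holds 1) with doublets kept and 1.47 without B2m. It moved to 0.973 as a mean over cells, 0.971 thinned, 0.958 with at least 1000 genes, 0.954 without mitochondrial and ribosomal genes and 0.803 with class I genes in the clustering. Neutrophil-like over microglia-like cells (0.727) turned to 1.16 without B2m, and gave 0.810 at resolution 1.0, 0.765 with doublets kept, 0.695 thinned, 0.827 with at least 1000 genes and 0.693 with class I genes in the clustering. The share of H2-M2 in mature dendritic-like cells (97.2%) was 98.7% thinned and moved less in the other 4. Apart from the removal of B2m, which takes out the gene that set the direction, the cause of these moves was not tested. Depth left Nlrc5, with 43 UMIs in all, out of every comparison and H2-M2, with 317, out of all but those with mature dendritic-like cells.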
